A study of Mus musculus with 6 samples.

Results

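The genes described here are 10 carriers that move amino acids and small peptides across the enterocyte, the absorptive cell of the small intestine. They were chosen by gene symbol. Slc15a1, Slc6a19, Slc6a20a, Slc7a9, Slc3a1, Slc1a1 and Slc36a1 are carriers of the apical membrane, which faces the lumen. Slc7a7, Slc7a8 and Slc3a2 are carriers of the basolateral membrane, which faces the blood, and do not cover all of its carriers. These are 7 apical and 3 basolateral genes of the 38561 genes in the tables, and all 10 passed the filter on low counts that left 16425 genes for testing. The members were listed with earlier results of these data known, so shares of members given below describe the list and are not a test.

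RNA-Seq of small intestinal mucosa from C57BL/6J mice aged 8 to 12 weeks was performed in 3 pools labelled Rbm47-IKO and 3 pools labelled wt. RBM47 is an RNA-binding protein, and the study's Rbm47-IKO line lacks it where Cre recombinase is driven constitutively by the villin promoter, that is in the intestinal epithelium. The study's control line carries the floxed Rbm47 alleles without loss of the gene, whereas the labels name the control pools wt. According to the labels, RNA of 3 mice of both sexes was combined in each pool. The study's methods allow for more than 3 in a pool, and its results name the tissue as jejunal. The mix of sexes in a pool was looked at only through its Y-linked level, used below as a covariate. Differences between single mice, or between males and females, cannot be separated within a pool. Each pool therefore counts as 1 replicate (n = 3 per group).

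Dietary protein reaches the enterocyte as free amino acids and as peptides of a few residues. Peptides enter through a proton-coupled carrier, and amino acids enter through carriers that each take a class of substrates (neutral, cationic, acidic or imino acids), some driven by sodium and some by exchange. Several of these carriers work as pairs, in which a light chain (such as Slc7a9, Slc7a7 or Slc7a8) forms the transport path and a heavy chain (Slc3a1 or Slc3a2) brings it to the membrane. Amino acids leave across the basolateral membrane mostly through such exchangers together with carriers that let amino acids flow down their gradient.

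The targeted gene was measured first. Rbm47 was at 603, 625 and 620 counts per 1000000 (CPM, scaled by the trimmed mean of M values, TMM) in the pools labelled Rbm47-IKO and at 460, 450 and 472 CPM in the wt pools. Pools with the Rbm47-IKO label thus held no less of it than wt (log2 fold change 0.42, SE 0.10, edgeR adjusted p = 0.0751). The study itself reports negligible Rbm47 mRNA after deletion in the intestine. Whether the labels were exchanged was not tested. Counts cover the whole gene and do not show which exons were read. Every direction below refers to the labels, and each positive log2 fold change means a higher level in the pools labelled Rbm47-IKO. By qPCR the study found Hoxb13 and Muc4 higher in Rbm47-IKO intestine. Both were also higher in the pools with that label, as given in the next paragraph, but neither passed in edgeR (adjusted p = 0.0708 and 0.0518). Hoxb13 and Muc4 were named outside the rule used for choosing genes. The study's other qPCR genes are not compared here, so Hoxb13 and Muc4 are not a test of the labels.

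The pools held 31560320 to 38951830 counts on genes. Of the 16425 genes tested, 443 (2.7%) passed an adjusted p of 0.05 in edgeR's quasi-likelihood test, 238 (1.45%) of them higher and 205 (1.25%) lower in the pools labelled Rbm47-IKO. Every pool labelled Rbm47-IKO lay above every wt pool for 11.7% of the genes tested and below every wt pool for 11.6%. The 10 enterocyte markers summed to 50200 to 55023 CPM in the pools labelled Rbm47-IKO and to 61510 to 68864 CPM in wt, so that this sum did not overlap between groups. Most of that gap lay in 2 markers named after their values were seen, Apob (10378 ± 491 against 18912 ± 3675 CPM, SD, n = 3 each) and Apoa4 (3361 ± 177 against 6762 ± 2138 CPM), while 4 of the 10 markers had a log2 fold change above 0. The 6 smooth muscle markers summed to 361, 586 and 3302 CPM in the former and to 90.7, 2803 and 313 CPM in the latter, so that IKO pool 3 and wt pool 2 stood apart. The 7 distal small intestine markers spanned 2689 to 3034 and 2211 to 3182 CPM, and the 7 proximal ones 5330 to 6690 and 4662 to 6212 CPM. Of the distal ones, 5 had a log2 fold change above 0 and 2 below, with 2 higher without overlap and 0 lower. Fabp6 was at 31.7, 39.8 and 18.6 against 17.2, 3.98 and 2.55 CPM, and Slc51a at 444, 480 and 371 against 324, 259 and 261 CPM. Of the proximal ones, 6 lay above 0 and 1 below, with 2 higher without overlap and 1 lower. DESeq2 called Slc51a and Slc51b, both higher, and the proximal marker Cyp2b10, which was lower. Of the 7 colon markers, Car1 and Hoxd13 were at 0 in all pools, and the summed level was 343 to 352 CPM in the pools labelled Rbm47-IKO and 212 to 312 CPM in wt, without overlap. All 4 colon markers tested had a log2 fold change above 0, 3 of them without overlap between groups, and 2 of these were among the DESeq2 calls. They were Hoxb13, at 2.60, 3.54 and 5.18 against 0, 0.55 and 0.30 CPM (edgeR adjusted p = 0.0708), and Muc4, at 107, 115 and 98.9 against 71.8, 40.6 and 51.5 CPM (edgeR adjusted p = 0.0518). The 8 B and plasma cell markers summed to 354 to 651 and 576 to 1032 CPM, and the 7 crypt markers to 468 to 726 and 481 to 1689 CPM. All 8 B and plasma cell markers had a log2 fold change below 0 (median -0.75), 3 of them without overlap. Of the crypt markers, 1 lay above 0 and 6 below. Only Olfm4 among these 7 was without overlap, at 16.8, 16.4 and 12.3 against 43.0, 79.7 and 20.7 CPM (edgeR adjusted p = 0.0974), and DESeq2 called it. Of the 48 distinct marker genes tested, 0 passed in edgeR, 2 in limma-voom and 9 in DESeq2 (2.62% and 7.83% of the genes that those tools tested passed), and 13 had an unadjusted p under 0.05 in edgeR, as had 16.8% of all genes tested. The part of the marker lists other than smooth muscle in the results below was not tested.

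Among the basolateral members, 2 of 3 passed as higher in the pools labelled Rbm47-IKO, against 1.45% of all genes tested. Slc7a8, the light chain of an exchanger of neutral amino acids, was 2.43-fold higher, and Slc3a2, the heavy chain that it shares with Slc7a7, was 1.63-fold higher. Slc7a7, the light chain of the exchanger through which cationic amino acids leave the cell, did not pass the test. These 3 members leave out other basolateral carriers. Of those, Slc16a10 was lower (log2 fold change -0.56, edgeR adjusted p = 0.0593) and Slc43a2 higher (0.39, edgeR adjusted p = 0.192), and neither passed. Among the apical carriers, 0 of 7 passed in edgeR, 3 had an unadjusted p under 0.05 (16.8% of all genes), limma-voom called 0 (2.62%) and DESeq2 called 3 (Slc6a19, Slc7a9 and Slc36a1, against 7.83% of all genes it tested). The median log2 fold change was 0.70 over the basolateral and 0.38 over the apical genes, beside -0.01 over all genes tested. In bulk tissue, a change in the share of cells that carry an mRNA and a change in mRNA per cell cannot be told apart.

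**Figure D1:**
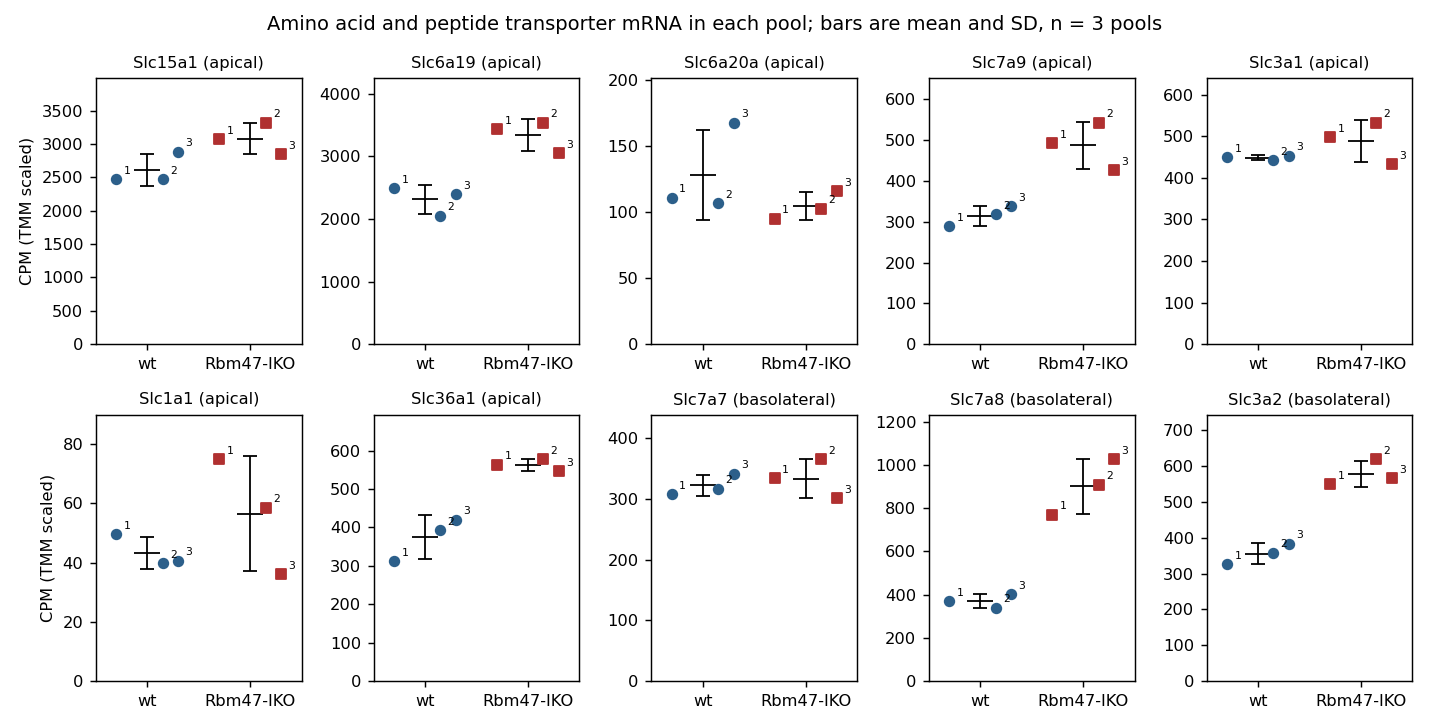
Level of each of the 10 transporter mRNAs in each pool, in TMM-scaled CPM on linear axes that start at 0. Circles are wt pools and squares are pools labelled Rbm47-IKO, each numbered by pool, and the bars give the mean and SD (n = 3). All 3 squares lie above all 3 circles for Slc6a19, Slc7a9, Slc36a1, Slc7a8 and Slc3a2.

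The start regions of the 3 basolateral genes are shown because these genes make up the 2 exchangers that share the heavy chain, and the genes of 1 of the 2 light chains and of the heavy chain passed the test. RefSeq sequence (GRCm38.p6) upstream of the start site was found for all 10 members, in 15 entries. From the 250 bases before the start, the longest stretch that no annotated exon covers is printed 5′ to 3′ on the strand of the gene, all on the minus strand: 190 bases of Slc7a8 at chr14:54781947-54782136, 63 bases of Slc3a2 at chr19:8713898-8713960 and 250 bases of Slc7a7 at chr14:54409473-54409722. Slc7a7 has 5 such entries, and the one next to the start of the counted gene was taken. The Slc3a2 stretch lies before a RefSeq start inside the counted gene, downstream of the first base of the gene in the tables. Capitals mark letter matches described in the next paragraph.
Slc7a8: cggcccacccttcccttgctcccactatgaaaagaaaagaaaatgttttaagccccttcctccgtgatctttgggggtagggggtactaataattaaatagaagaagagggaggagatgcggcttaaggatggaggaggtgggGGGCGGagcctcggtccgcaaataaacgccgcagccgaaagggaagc
Slc3a2: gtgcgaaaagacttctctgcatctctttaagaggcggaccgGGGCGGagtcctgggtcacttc
Slc7a7: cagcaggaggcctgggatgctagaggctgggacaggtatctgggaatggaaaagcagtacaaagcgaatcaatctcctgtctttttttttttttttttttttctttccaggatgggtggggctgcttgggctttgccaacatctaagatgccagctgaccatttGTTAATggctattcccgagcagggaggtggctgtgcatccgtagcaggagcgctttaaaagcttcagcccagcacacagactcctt

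Motif letters were searched on both strands of the 250 bases. Slc7a8 and Slc3a2 each held GGGCGG, the core of an Sp1 site, 107 and 22 bases before the start, as did 32.74% of the 32851 promoters of the same length. The same letters were in Slc1a1, Slc6a20a and 2 entries of Slc7a7, none of which passed the test. Neither held TGATGNAA, an amino acid response element, which 3.45% of promoters held and which among the members was found in 2 of the 5 entries of Slc7a7. The Slc7a7 stretch printed above held GTTAAT, an HNF1 site core, 86 bases before the start, as did 6.43% of promoters. Among the apical genes, Slc36a1 and Slc6a20a also held this HNF1 core. Slc36a1 held the E-box CACGTG (6.02% of promoters) as well. The upstream bases of Slc3a1 included an HNF4 site, spelled CAAAGTCC, which was found in 1.2% of promoters. For Slc7a9 the match was a GATA site with the letters AGATAAG, as in 2.74% of promoters. TTTATG, a CDX site (10.76% of promoters), and TGACNNNGC, an antioxidant response element (10.16%), were in none of the 15 entries. These are matches of letters only.

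Slc7a8 (chr14:54722216-54781886, minus strand, GRCm38) was at 769, 908 and 1026 CPM in the pools labelled Rbm47-IKO and at 370, 339 and 402 CPM in wt. The lowest pool of the former was above the highest pool of the latter, and the 3 IKO pools spread more widely (901 ± 129 CPM, SD, n = 3) than the wt pools (370 ± 31.7). The log2 fold change was 1.28 (SE 0.14, 95% CI 0.95 to 1.62, edgeR adjusted p = 0.0095), which gave the gene rank 46 by p among the 16425. With IKO pool 3 and wt pool 2, the pools with most smooth muscle RNA, left out, the log2 fold change was 1.11 (edgeR adjusted p = 0.0268). The call was lost without IKO pool 2 (edgeR adjusted p = 0.0772, log2 fold change 1.28) or without wt pool 3 (edgeR adjusted p = 0.0504, log2 fold change 1.35), and with the Y-linked level as a covariate (edgeR adjusted p = 0.0502). None of its exon bases are shared with another gene of the tables, and 0.061% of its 50-base words occur in another gene.

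Slc3a2 (chr19:8706882-8723369, minus strand) is the heavy chain of both basolateral exchangers and is made by many cell types. It was at 550, 619 and 567 CPM in the pools labelled Rbm47-IKO and at 326, 358 and 383 CPM in wt. The groups did not overlap, and the spread within each was small (579 ± 36.0 and 356 ± 28.6 CPM, SD, n = 3 each). The log2 fold change was 0.70 (SE 0.12, 95% CI 0.43 to 0.97, edgeR adjusted p = 0.0264). This call was less firm than that of Slc7a8. It was lost on leaving out any 1 pool other than wt pool 2 (edgeR adjusted p = 0.0590 to 0.188, log2 fold change 0.64 to 0.76) and on leaving out both muscle-rich pools (edgeR adjusted p = 0.0783, log2 fold change 0.71). It was also lost with an offset for GC content (edgeR adjusted p = 0.0593) and with the Y-linked covariate (edgeR adjusted p = 0.117). With the pool number as a replicate block it did not pass either (edgeR adjusted p = 0.0877). Of its 50-base words, 3.42% occur in other genes.

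Slc7a7 (chr14:54369444-54409472, minus strand) lies 313 kb from Slc7a8 on the same strand of chromosome 14. Its levels were 334, 365 and 301 CPM in the pools labelled Rbm47-IKO and 308, 317 and 342 CPM in wt, and the groups overlapped. The log2 fold change was 0.05 (SE 0.12, edgeR adjusted p = 0.901), and its 95% confidence interval ran from 0.86-fold to 1.25-fold. Of its exon bases, 10.6% overlap Oxa1l on the opposite strand, and the use of strand in counting is not given in the sources used here.

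**Figure D2:**
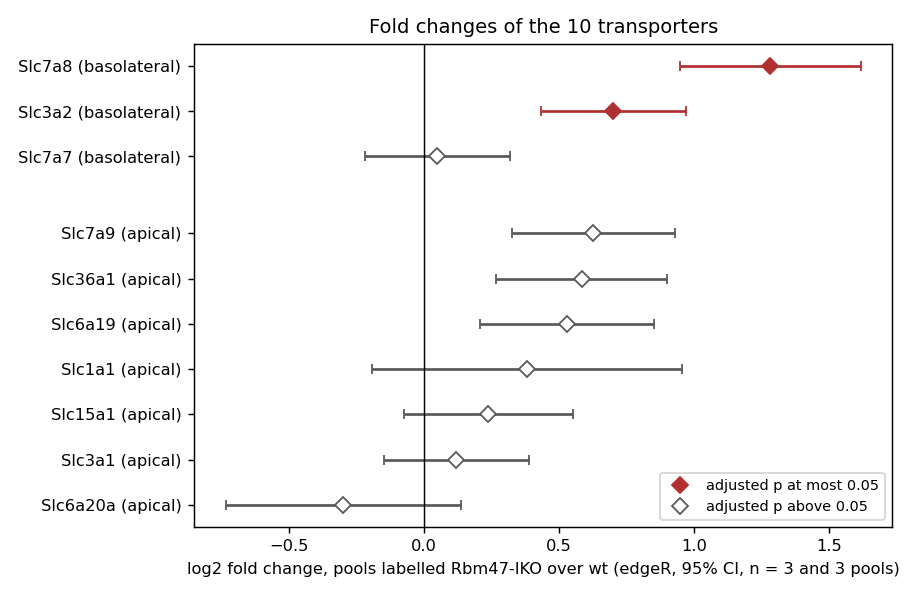
Log2 fold change of each transporter, pools labelled Rbm47-IKO over wt, with its 95% confidence interval from edgeR (n = 3 and 3 pools). Filled symbols passed an adjusted p of 0.05. Only Slc7a8 (1.28) and Slc3a2 (0.70) are filled, and the intervals of Slc7a9, Slc36a1 and Slc6a19 also lie above 0 although their adjusted p does not pass.

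Per exon length, the order of the 2 light chains differed in the pools labelled Rbm47-IKO. Per kilobase of exon, the log2 ratio of Slc7a8 to Slc7a7 was 0.29, 0.40 and 0.85 in these pools and -0.65, -0.82 and -0.68 in wt. Slc7a8 mRNA was therefore above Slc7a7 mRNA in each pool labelled Rbm47-IKO and below it in each wt pool, a mean difference of 1.23 on the log2 scale. The order within a pool depends on division by exon length, since in CPM Slc7a8 was above Slc7a7 in every pool of both groups, whereas the difference between groups does not. For the heavy chain, the log2 ratio to the sum of both light chains was -0.90, -0.92 and -1.04 in the pools labelled Rbm47-IKO and -1.10, -0.94 and -1.001 in wt, with overlapping groups and a difference of 0.06. The lowest two-sided p that an exact permutation test allows for 3 and 3 pools is 0.1, and no p is given for these ratios.

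On the apical side, the peptide carrier Slc15a1 (chr14:121459621-121505254, minus strand), which takes up di- and tripeptides with protons, was the most abundant member per kilobase. Its levels were 3068, 3317 and 2847 CPM in the pools labelled Rbm47-IKO and 2475, 2470 and 2881 CPM in wt. The groups overlapped through wt pool 3 and IKO pool 3, and the log2 fold change was 0.24 (SE 0.13, 95% CI -0.07 to 0.55, edgeR adjusted p = 0.443).

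Slc6a19 (chr13:73679745-73704865, minus strand) is the main sodium-driven carrier of neutral amino acids in the brush border. It was at 3429, 3536 and 3053 CPM in the pools labelled Rbm47-IKO and at 2491, 2052 and 2395 CPM in wt. No pool overlapped, yet the adjusted p did not pass (log2 fold change 0.53, SE 0.14, 95% CI 0.21 to 0.85, edgeR adjusted p = 0.0970). Cltrn, the partner of this carrier in the kidney, had 36 counts over all 6 pools and was not tested.

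The imino acid carrier Slc6a20a (chr9:123636122-123678885, minus strand), which takes up proline with sodium, was the only member with a fold change below 0. Its levels were 95.03, 102 and 116 CPM in the pools labelled Rbm47-IKO and 111, 107 and 168 CPM in wt. The groups overlapped, wt pool 3 was the highest, and the log2 fold change was -0.30 (SE 0.19, 95% CI -0.73 to 0.14, edgeR adjusted p = 0.497). The value was -0.05 without wt pool 3 and -0.50 with both muscle-rich pools left out, neither of which passed. Its value is uncertain, since 15.3% of its 50-base words also occur in its neighbour Slc6a20b, which lies 3.56 kb away, and 16.0% of its exon bases overlap Ccr9, Gm17120 and Gm17200 on the opposite strand.

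Slc7a9 and Slc3a1 form the brush-border exchanger that takes up cystine and cationic amino acids, and loss of either causes cystinuria. The light chain Slc7a9 (chr7:35449037-35466036, plus strand) was at 492, 543 and 426 CPM in the pools labelled Rbm47-IKO and at 289, 318 and 338 CPM in wt. These groups did not overlap, and the log2 fold change of 0.63 (SE 0.13, 95% CI 0.33 to 0.93) missed the threshold narrowly (edgeR adjusted p = 0.0521). Slc7a9 passed in 5 of 18 alternative settings, and in 0 of the 6 that left out 1 pool. The heavy chain Slc3a1 (chr17:85028347-85064243, plus strand) was at 498, 533 and 433 CPM and at 450, 443 and 454 CPM in the same order. Its groups overlapped, with IKO pool 3 below all wt pools, and the log2 fold change was 0.12 (95% CI -0.15 to 0.39, edgeR adjusted p = 0.701). Of the exon bases of Slc3a1, 26.4% overlap Prepl on the opposite strand.

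The level of the heavy chain relative to its light chain was lower in the pools labelled Rbm47-IKO. Per kilobase, the ratio of Slc3a1 to Slc7a9 was 1.16, 1.13 and 1.17 in these pools and 1.79, 1.598 and 1.54 in wt. The groups did not overlap, and the mean difference was -0.51 on the log2 scale. The size of each ratio, but not the difference between groups, depends on division by exon length: in CPM, Slc3a1 and Slc7a9 were nearly equal in the pools labelled Rbm47-IKO.

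**Figure D3:**
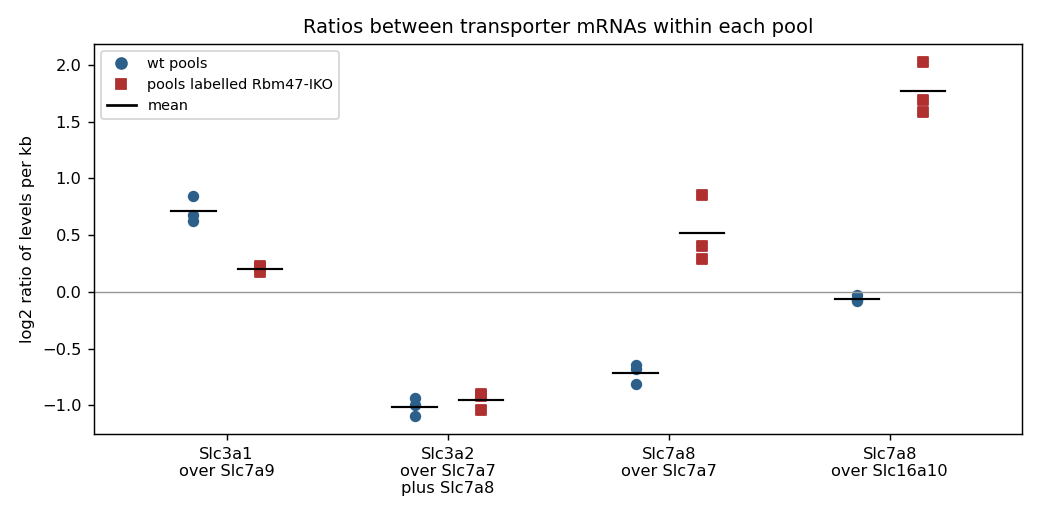
Log2 ratios of levels per kilobase of exon within each pool, for the heavy and light chains and for Slc7a8 against Slc7a7 and Slc16a10. Circles are wt pools, squares are pools labelled Rbm47-IKO and short lines are means (n = 3). The ratio of Slc3a2 to the sum of Slc7a7 and Slc7a8 overlaps between the groups, and the other 3 ratios do not.

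The carrier of acidic amino acids, Slc1a1 (chr19:28835049-28913960, plus strand), which takes up glutamate and aspartate, was the least abundant member. It was at 74.9, 58.5 and 36.1 CPM in the pools labelled Rbm47-IKO and at 49.6, 39.9 and 40.6 CPM in wt. The pools labelled Rbm47-IKO included both the highest and the lowest value, and the log2 fold change was 0.38 with a wide interval (SE 0.25, 95% CI -0.19 to 0.96, edgeR adjusted p = 0.513). It was 0.13 without IKO pool 1 and 0.62 without IKO pool 3. Of its exon bases, 42.6% overlap genes on the opposite strand, which makes its count the most uncertain of the 10 in this respect.

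Slc36a1 (chr11:55204350-55236330, plus strand) carries small neutral amino acids such as glycine, alanine and proline with protons, at the brush border and at lysosomes. It was at 563, 577 and 546 CPM in the pools labelled Rbm47-IKO and at 311, 393 and 421 CPM in wt. The groups did not overlap, and the pools labelled Rbm47-IKO were closer together (562 ± 15.7 CPM, SD, n = 3) than the wt pools (375 ± 56.6). The log2 fold change was 0.58 (SE 0.14, 95% CI 0.27 to 0.90, edgeR adjusted p = 0.0712).

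Of the 10 members, 5 had groups that did not overlap with the pools labelled Rbm47-IKO higher, against 11.7% of all genes tested, and 0 had them lower, against 11.6%. Against the 2.7% of genes that passed the edgeR test in either direction, 2 of the 10 did. Because the members were listed with earlier results known, these shares are not a test.

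Compared per kilobase of exon, the members spanned more than 2 orders of magnitude in wt mucosa. The means were 835 ± 75.5 CPM per kb for Slc15a1, 462 ± 46.2 for Slc6a19, 195 ± 2.39 for Slc3a1, 150 ± 8.16 for Slc7a7, 120 ± 9.68 for Slc3a2, 119 ± 9.29 for Slc7a9, 91.8 ± 7.87 for Slc7a8, 66.6 ± 10.1 for Slc36a1, 47.0 ± 12.5 for Slc6a20a and 7.03 ± 0.88 for Slc1a1 (SD, n = 3 each). Neighbours in this order whose pools overlapped were Slc3a2 with Slc7a9 and Slc36a1 with Slc6a20a, and the other neighbours were apart. In the pools labelled Rbm47-IKO, Slc7a8 moved from the seventh to the third place (223 ± 31.9 CPM per kb), where its pools overlapped those of Slc3a1 (211 ± 21.9), Slc3a2 (196 ± 12.2) and Slc7a9 (184 ± 22.0). Slc15a1 (985 ± 75.3) and Slc6a19 (667 ± 50.7) remained the most abundant members, and Slc15a1 had rank 50 among the 16425 genes tested by its mean over all 6 pools.

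**Figure D4:**
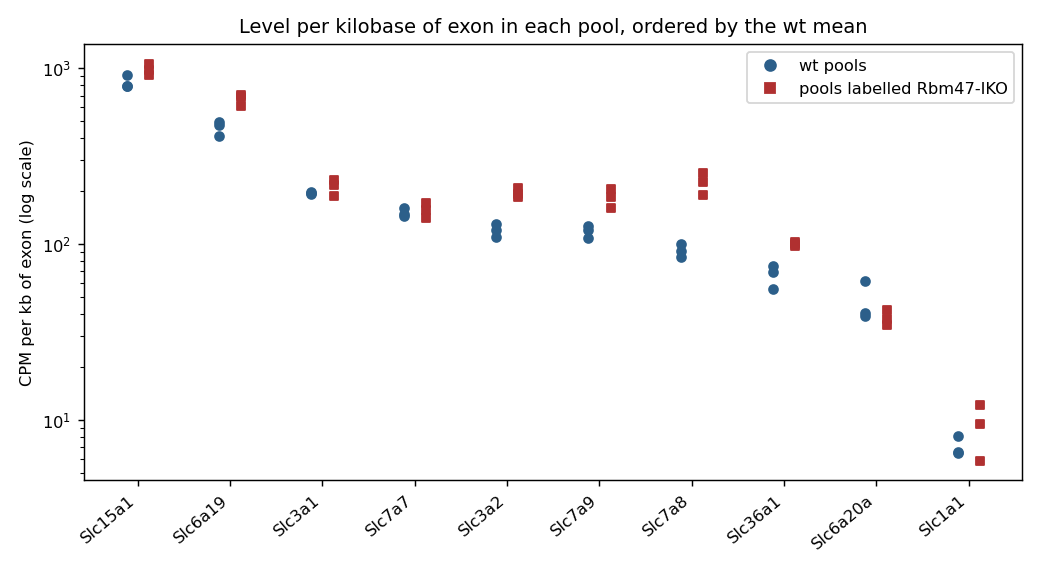
Level of each transporter mRNA per kilobase of exon in each pool, on a log axis, ordered by the wt mean. Circles are wt pools and squares are pools labelled Rbm47-IKO (n = 3 each). Slc15a1 is highest and Slc1a1 lowest in both groups, and Slc7a8 stands out by the gap between its circles (84.0 to 99.7) and squares (191 to 254).

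The other carriers of amino acids and peptides were counted from a list of 48 genes, of which 38 were tested. In edgeR 1 of the 38 passed, against 2.7% of all genes, and DESeq2 called 5, against 7.83%. The median log2 fold change was 0.11, with 25 genes above and 13 below 0, and 6 had groups that did not overlap upwards and 5 downwards, shares near the 11.7% and 11.6% of all genes. The gene that passed was Slc38a1, a sodium-coupled carrier of glutamine, at 47.1, 46.8 and 49.6 CPM in the pools labelled Rbm47-IKO and 32.4, 36.7 and 30.4 CPM in wt. Its groups did not overlap, and its call (log2 fold change 0.53, SE 0.11, edgeR adjusted p = 0.0484) was kept in only 3 of 18 alternative settings. Slc7a12 and Slc7a13 were at 0 in all 6 pools.

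The 6 most abundant of these carriers per kilobase did not pass in edgeR, and DESeq2 called 3 of them, Slc16a10, Slc38a2 and Slc6a6 (DESeq2 adjusted p = 0.0039, 0.0293 and 0.0462). Slc16a10 also passed in edgeR in 4 further settings of the 18, and under library size or upper quartile scaling it was the only other carrier called (edgeR adjusted p = 0.0281 and 0.0402), where Slc38a1 was not. Slc16a10, a basolateral carrier that lets aromatic amino acids leave the cell, was at 342, 377 and 337 CPM in the pools labelled Rbm47-IKO and at 525, 462 and 566 CPM in wt. Its groups did not overlap, in the opposite direction to Slc7a8 (log2 fold change -0.56, SE 0.12, 95% CI -0.84 to -0.28, edgeR adjusted p = 0.0593). The ratio of Slc7a8 to Slc16a10 per kilobase was 3.01, 3.22 and 4.08 in the pools labelled Rbm47-IKO and 0.94, 0.98 and 0.95 in wt. The groups did not overlap, and the near parity in wt holds per kilobase only, since in CPM Slc7a8 was below Slc16a10 in each wt pool.

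Slc43a2, a basolateral carrier of branched-chain and other large neutral amino acids, was at 1776, 1897 and 1903 CPM in the pools labelled Rbm47-IKO and at 1324, 1318 and 1624 CPM in wt. It did not overlap between groups (log2 fold change 0.39, edgeR adjusted p = 0.192). The taurine carrier Slc6a6 was at 504, 517 and 568 against 444, 329 and 392 CPM (log2 fold change 0.45, edgeR adjusted p = 0.149), and the glutamine carrier Slc38a2 at 97.4, 93.3 and 98.1 against 75.6, 70.9 and 74.2 CPM (log2 fold change 0.39, edgeR adjusted p = 0.0708). Neither overlapped between groups. Slc7a15 was at 328, 314 and 408 against 393, 267 and 307 CPM and overlapped (log2 fold change 0.12, edgeR adjusted p = 0.828). Slc38a10 was at 145, 147 and 133 against 147, 159 and 186 CPM, with the pools labelled Rbm47-IKO just below all wt pools (log2 fold change -0.21, edgeR adjusted p = 0.442).

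Among 7 tested genes for partner proteins and ion gradients, 0 passed in edgeR, 1 had an unadjusted p under 0.05 (16.8% of all genes) and DESeq2 called 1 (7.83%). Anpep, the brush-border aminopeptidase that frees amino acids from peptides, was at 10906, 12459.5 and 12303 CPM in the pools labelled Rbm47-IKO and at 8637, 7991 and 8272 CPM in wt. The groups did not overlap (log2 fold change 0.52, SE 0.14, edgeR adjusted p = 0.107, and DESeq2 adjusted p = 0.0014). Of 14 genes that respond to amino acid shortage, 1 passed in edgeR (2.7% of all genes) and 2 in DESeq2 (7.83%). The edgeR call was Sesn2, a sensor of leucine, at 13.6, 16.4 and 13.1 CPM in the pools labelled Rbm47-IKO and 8.44, 8.80 and 8.67 CPM in wt (log2 fold change 0.74, SE 0.14, edgeR adjusted p = 0.0430). The call of Sesn2 was lost on leaving out any 1 pool (edgeR adjusted p = 0.0646 to 0.255, log2 fold change 0.63 to 0.80). The median log2 fold change of the 14 genes was 0.14.

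The 3′ untranslated regions of the members were read for AUUUA, a sequence of unstable mRNAs that the study also looked at. The longest annotated region of Slc7a8 was 1885 bases long with 2 copies, and that of Slc3a2 was 841 bases long with 1 copy. These densities of 1.06 and 1.19 per kb were close to the median of 1.18 per kb over 14131 genes tested. Slc6a20a had 7 copies (3.14 per kb), Slc15a1 had 4 (4.16 per kb), Slc3a1 had 1 in a short region of 157 bases (6.37 per kb, the highest density among the members) and Slc7a9 had none. Slc7a7, Slc1a1, Slc6a19 and Slc36a1 had 2.91, 2.43, 2.12 and 1.35 per kb, each above that median. Binding of RBM47 to any of these mRNAs was not measured.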

How the data were processed

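RNA-Seq of 6 pools of small intestinal mucosa (3 labelled Rbm47-IKO, 3 labelled wt) was analysed. The submitters' processing notes name STAR 2.5.1a, Subread with featureCounts 1.4.6-p5 and GRCm38, and the roles and settings of these tools are not given there. For every pool, the authors deposited a table of raw read counts for 38561 Ensembl genes. Its CPM column (counts per 1000000 of the pool's total), also computed by the authors, and the deposited RPKM column (that value per kilobase of gene length) were recomputed from the counts with a largest difference of 4.91e-11 and were not used further.

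Symbols came from a table of gene names (36639 genes matched). Genes passing filterByExpr (16425) were TMM-scaled, and edgeR 4.0.16 (limma 3.58.1, R 4.3.3) gave the quasi-likelihood tests, with Benjamini-Hochberg adjustment over all of them and the study's threshold of 0.05. No pair of pools of a group agreed within sampling noise. DESeq2 1.42.0, limma-voom, other scalings and filters, a pool-number block and leaving out pools were tried as alternatives. Added after seeing the data were a GC offset, and the smooth muscle or Y-linked level as a covariate. Promoters are from RefSeq (GRCm38.p6), searched with Python 3.11.15, and exons and 3′ untranslated regions are from GENCODE. Levels are TMM-scaled CPM, divided by the exon length of the tables where genes are compared. The fits were tested on simulated data.

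The members and lists were chosen with earlier results of these data known. Named were all 10 members, Rbm47, of the other carriers those that passed and the 6 with the highest level per kilobase, of the partner and amino acid response lists those that passed and Cltrn and Anpep, and markers at 0. Apob, Apoa4, Fabp6, Slc51a, Slc51b, Cyp2b10, Olfm4, Hoxb13, Muc4, Slc7a12 and Slc7a13 fall outside this rule. One further gene of this rule is not reported here. Depth was 31560320 to 38951830 counts per pool. Reads are not independent molecules, and the spread between pools limits precision more than counting does.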

Additional observations from a re-analysis of the deposited data

How the results depend on the processing

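Of 18 alternative settings, 15 kept Slc7a8 past the threshold and 9 kept Slc3a2, and neither changed direction (log2 fold change 1.11 to 1.38 and 0.63 to 0.76). Calls came close to the threshold and rest on few pools. The cause of each change was not tested, except that leaving out pools leaves fewer samples.

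Leaving out 1 pool at a time gave 0 to 431 genes called (0 without IKO pool 2, by edgeR, where 1729 had an unadjusted p under 0.05; 11 without wt pool 3; 32 without IKO pool 1; 119 without IKO pool 3), 0 to 2 basolateral members (0 without IKO pool 2 or wt pool 3), 0 to 2 other carriers and, in each fit, 0 apical members and 0 partner and amino acid response genes. Over these fits the log2 fold change was 1.18 to 1.38 for Slc7a8, 0.64 to 0.76 for Slc3a2 and -0.021 to 0.12 for Slc7a7, which fell below 0 without IKO pool 2, and -0.0046 to 0.28 for Slc7a15, which fell below 0 without IKO pool 3.

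With the pool number as a replicate block, 100 genes, 1 basolateral member (Slc7a8), 0 other carriers and 0 partner and response genes were called, and Slc3a2 missed the threshold (log2 fold change 0.70, edgeR adjusted p = 0.0877). The deviations of pools with the same number correlated at 0.42, -0.04 and -0.32 (r across genes), and not every pool correlated best with its own number. The highest r, 0.50, was between IKO pool 3 and wt pool 2, the muscle-rich pools. Deviations were taken within each group, so these correlations depend on one another. They cannot show whether the numbers pair the pools.

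DESeq2 called 1131 genes, 3 apical members, 5 other carriers and 3 partner and response genes. Scaling by library size called 614 genes, 2 of them apical members, with a log2 fold change of 0.41 for Rbm47 that passed the threshold (as it did in DESeq2, 0.42), and upper quartile scaling called 533 genes with 1 apical member. A filter of 1 CPM in 3 pools called 550 of 13425 genes, 1 apical member and 2 other carriers. RLE factors (383 genes) and limma-voom (431 genes) called 0 other carriers. Without a filter 473 of 26093 genes, 0 other carriers and 0 partner and response genes were called. With both muscle-rich pools left out 327 of 16335 genes, 1 basolateral member, 0 other carriers and 0 partner and response genes were called, Slc3a2 had a log2 fold change of 0.71 and Slc7a15 one of -0.13.

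Of the settings added after seeing the data, the smooth muscle covariate gave 711 genes, 1 apical member and 2 partner and response genes. The GC offset gave 266 genes, 1 basolateral member, 0 other carriers and 0 partner and response genes, with a log2 fold change of 0.63 for Slc3a2 and -0.0040 for Slc7a7. Over 16221 genes, log2 fold change correlated with transcript GC content (Spearman rho 0.27). Slc7a8 (52.8%) and Slc3a2 (53.4%) lay above the median GC content of 49.8%. The Y-linked covariate gave 59 genes, 0 basolateral members, 0 other carriers and 0 partner and response genes, with 1.33 for Slc7a8 (edgeR adjusted p = 0.0502) and 0.66 for Slc3a2 (edgeR adjusted p = 0.117).

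By wt CPM without length, Slc36a1 and Slc7a8 ranked above Slc3a2, Slc7a7 and Slc7a9, and Slc3a2 above Slc7a7, against the order per kilobase.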
